A study of Homo sapiens with 6 samples.

Results

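Genes of the unfolded protein response and the chaperones of the endoplasmic reticulum (ER) were read in a pair of related human breast cancer cell lines. The members were the probe sets whose single gene symbol in the platform annotation is one of 33 ER stress genes. Of the 33, 32 had such a probe set, with 56 probe sets in all out of 22283 on the array, and DNAJB11 was not analysed here. In a table of 11963 genes, in which the brightest probe set stood for each gene, they made 3 sensors, 23 genes of the ATF6 and IRE1 side and 6 of the PERK-ATF4 side.

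SUM44 is an estrogen receptor positive line from an invasive lobular carcinoma, and LCCTam is its variant that grows despite tamoxifen. There were 3 SUM44 arrays, from passages 74, 75 and 76, and 3 LCCTam arrays, from passages 8, 9 and 10, called replicates 1 to 3 of each line in that order. Both lines were harvested as sub-confluent flasks in the medium SFIH, based on Ham's F12. LCCTam medium also held 500 nM 4-hydroxytamoxifen, the active metabolite of tamoxifen, and for SUM44 no such addition is given. Resistance and the presence of the drug therefore cannot be told apart. Each line is 1 culture lineage, and no label says that its passages were independent cultures. Epithelial and luminal markers were bright in both lines, with a mean log2 expression of 11.46 to 11.95 per array over 8 genes including KRT8, KRT18 and EPCAM, while ESR1 was lower in LCCTam. Fibroblast markers (7 genes) averaged 5.56 to 5.78, leukocyte markers (4) 4.92 to 5.12 and endothelial markers (4) 4.54 to 4.65. LCCTam passage 10 stood apart from the other arrays. Its actin control was 1.92 brighter at the 3′ than at the 5′ end on the log2 scale, against 0.90 to 1.15 elsewhere.

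As background, proteins bound for the membrane or for secretion enter the ER through the SEC61 channel, fold there with chaperones such as BiP, and are pulled back into the cytosol for destruction when folding fails. Unfolded protein in the ER is sensed by ATF6, by IRE1 (gene ERN1) and by PERK (gene EIF2AK3). ATF6 and the spliced XBP1 made by IRE1 switch on chaperones and degradation factors. PERK phosphorylates the translation factor eIF2, which slows protein synthesis but favours translation of ATF4, a factor that turns on amino acid supply and stress genes. Other eIF2 kinases also reach ATF4, for example when amino acids run short.

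The promoter elements of both arms are shown first, because the members' values are read below by arm. Promoter windows from the RefSeq table of build GRCh38.p14, 250 bases before to 50 bases after a gene's start, were found for 30 of the 32 genes, and SEC24D and PDIA3 had none. They were searched on both strands for the ER stress element ERSE, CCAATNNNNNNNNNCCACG, for ERSE-II, ATTGG and CCACG with 1 free base between them, and for the ATF4 element CARE, TGATGNAAN. ERSE was in 0.0769% of the 35116 windows, ERSE-II in 0.0541% and CARE in 3.61%. Counted by gene, as the members are below, the shares were 0.0916%, 0.0696% and 4.45% of 27305 genes. Of the 30 genes, 7 had ERSE (HSPA5, HSP90B1, CALR, CANX, CRELD2, PDIA6 and SERP1) and 3 had ERSE-II (HYOU1, HERPUD1 and SDF2L1), so 10 genes held one of these, all of them on the ATF6 and IRE1 side. CARE was in 3 members, ASNS and CHAC1 of the PERK-ATF4 side and HERPUD1. No CARE match in the windows of ATF4, DDIT3, TRIB3 and PPP1R15A says only that these letters are not there. Stretches upstream of the start follow, with the fixed letters of each match in capitals. A match on the other strand reads as the reverse complement.
HSPA5 (chr9:125241351-125241449, minus strand, ERSE): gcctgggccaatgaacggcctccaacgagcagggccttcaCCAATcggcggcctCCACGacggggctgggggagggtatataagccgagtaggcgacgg
CRELD2 (chr22:49918514-49918612, plus strand, ERSE): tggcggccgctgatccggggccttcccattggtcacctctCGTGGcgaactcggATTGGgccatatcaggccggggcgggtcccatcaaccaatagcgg
HSP90B1 (chr12:103930176-103930379, plus strand, ERSE, 2 matches): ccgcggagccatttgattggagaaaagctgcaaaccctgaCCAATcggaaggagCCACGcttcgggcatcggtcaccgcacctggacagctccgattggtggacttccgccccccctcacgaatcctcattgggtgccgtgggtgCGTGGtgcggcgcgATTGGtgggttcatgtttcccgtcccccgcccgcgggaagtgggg
CANX (chr5:179698773-179698801, plus strand, ERSE): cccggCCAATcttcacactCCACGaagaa
HERPUD1 (chr16:56931985-56932075, plus strand, ERSE-II): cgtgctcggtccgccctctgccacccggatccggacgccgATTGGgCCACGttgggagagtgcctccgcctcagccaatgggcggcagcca
SDF2L1 (chr22:21642074-21642164, plus strand, ERSE-II): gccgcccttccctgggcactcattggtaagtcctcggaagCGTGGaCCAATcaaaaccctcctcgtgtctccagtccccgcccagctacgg
ASNS (chr7:97872463-97872481, minus strand, CARE): aggcaTGATGaAActtccc
CHAC1 (chr15:40953221-40953309, plus strand, CARE): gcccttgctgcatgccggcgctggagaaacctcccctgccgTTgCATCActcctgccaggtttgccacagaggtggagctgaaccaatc

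Between the lines, 1 member rose and 2 fell. SEC61A1, the pore-forming subunit of the SEC61 channel, was higher in LCCTam, while CANX, the membrane-bound chaperone calnexin, and SEL1L, an adaptor of the ubiquitin ligase that clears misfolded ER proteins, were lower. The other 29 genes did not pass, among them every sensor, BiP and every PERK-ATF4 gene. Differences are LCCTam minus SUM44 in log2 expression, and a gene passed at a limma p under 0.05 after Benjamini-Hochberg adjustment over all 11963 genes. The 3 calls among 32 genes stand against 7.92% of all genes passing (2.09% higher and 5.83% lower), a share close to the background. Among all passing genes, 73.6% were lower, and 54.2% after quantile normalization between arrays. With that normalization the passing members were SEC61A1 and P4HB, both higher. The median difference of the members was 0.095, against 0.017 for all genes. For 12 of the 32 the ranges of both lines stayed apart, against 29.8% of all genes. Of these, 8 had every LCCTam value above every SUM44 value and 4 had every value below, where all genes gave 13.2% and 16.6%. Over all 56 member probe sets this upward lean was not seen: 10 lay above and 11 below, against 13.0% and 16.6% of all probe sets, with a median difference of 0.012 against 0.013. Genes with several probe sets weigh more in this count. Those below include all 3 of CANX, the 2 of HSP90B1 and most of SEL1L, and those above include the 2 of P4HB.

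**Figure D1:**
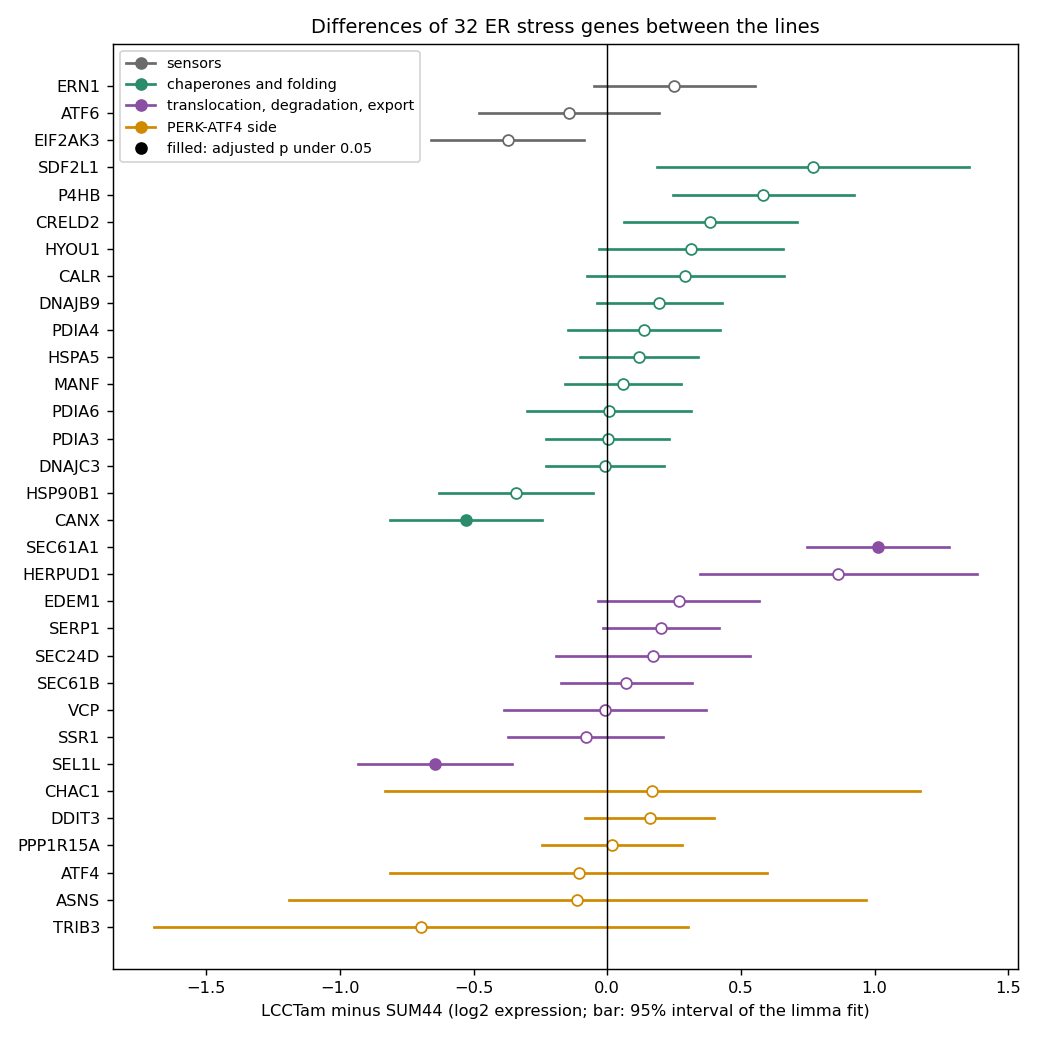
Difference in log2 expression between LCCTam and SUM44 (horizontal axis) for each of 32 genes, with 95% intervals of the limma fit, 3 arrays per line. Filled points passed an adjusted p of 0.05, and these are SEC61A1 to the right of 0 and CANX and SEL1L to the left. The widest intervals are those of TRIB3, ASNS, CHAC1 and ATF4.

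SEC61A1 was the member with the clearest difference. Its 1 probe set read 9.38, 9.37 and 9.29 in log2 expression on the SUM44 arrays at passages 74, 75 and 76, and 10.41, 10.51 and 10.15 on the LCCTam arrays at passages 8, 9 and 10. The lines were far apart and the SUM44 values nearly equal. LCCTam exceeded SUM44 by 1.01 ± 0.11 (SE) in limma, which is 2.02-fold, with an adjusted p = 0.00356. Leaving out each array in turn gave 0.93 to 1.11, with adjusted p from 0.00226 to 0.0294. SEC61A1 also passed in each of the 11 alternative settings that measured it. Its partner SEC61B, the small subunit of the same channel, differed by 0.07 (95% interval -0.17 to 0.32, adjusted p = 0.735). SSR1, a subunit of the translocon-associated TRAP complex, differed by -0.08.

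CANX was lower in LCCTam in all 3 of its probe sets. The brightest read 12.20, 12.07 and 12.36 in SUM44 and 11.57, 11.61 and 11.87 in LCCTam. The lowest SUM44 value lay above the highest LCCTam value. Its difference was -0.53 (SE 0.12, adjusted p = 0.0436). The other probe sets of CANX differed by -0.79 and -0.80 (limma adjusted p = 0.00837 and 0.0112 in the fit of all 19065 named probe sets). With 1 array left out, the difference of the brightest probe set stayed between -0.62 and -0.45, and its call was lost for any array but LCCTam passage 10. Its adjusted p was 0.0946, 0.0977 and 0.118 without SUM44 passages 74, 75 and 76, and 0.159 and 0.126 without LCCTam passages 8 and 9. After quantile normalization it was 0.0803. The other CANX probe sets still passed after quantile normalization (adjusted p = 0.0236 and 0.0113 in limma). The first of them lost its call only without SUM44 passage 75 (0.0552), and the second without SUM44 passage 75 (0.0695) and without LCCTam passage 8 (0.0549). CALR, the soluble relative of calnexin in the same glycoprotein cycle, differed by 0.29 with overlapping values (95% interval -0.07 to 0.66, adjusted p = 0.32).

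SEL1L had 4 probe sets, all with negative differences, from -0.65 to -0.14. The brightest read 8.59, 8.89 and 8.91 in SUM44 and 8.24, 8.00 and 8.22 in LCCTam. Here too the lines did not overlap. The difference was -0.65 (SE 0.12, adjusted p = 0.0236), and this was the only SEL1L probe set that passed in the fit of all probe sets. Its adjusted p was 0.116 without SUM44 passage 75, 0.0718 without SUM44 passage 76, 0.0735 without LCCTam passage 8, 0.0775 without LCCTam passage 9 and 0.0666 after quantile normalization. With the mean of all SEL1L probe sets the difference was -0.39 (adjusted p = 0.0221). Over all probe sets, 5 of the 56 member probe sets passed, 1 higher and 4 lower, against 7.37% of all named probe sets (1.72% higher and 5.65% lower).

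**Figure D2:**
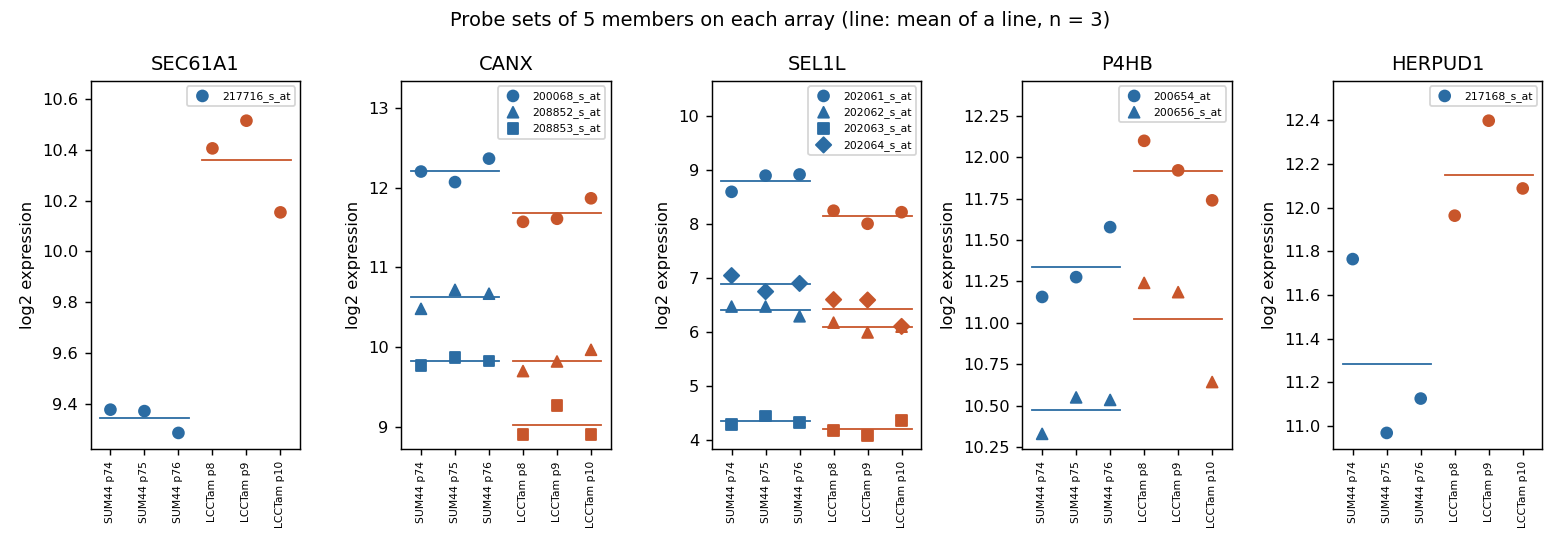
Log2 expression of each probe set on each array for SEC61A1, CANX, SEL1L, P4HB and HERPUD1, with lines at the mean of each cell line (n = 3). SEC61A1 runs from 9.29 to 9.38 in SUM44 and from 10.15 to 10.51 in LCCTam, and all 3 CANX probe sets are lower in LCCTam.

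HERPUD1 and P4HB had positive differences that did not pass, with no overlap of the lines. HERPUD1 encodes a membrane protein of ER-associated degradation, and its promoter carries both the ERSE-II match shown above and a CARE match. It read 11.76, 10.97 and 11.13 in SUM44 and 11.96, 12.40 and 12.09 in LCCTam (difference 0.86, SE 0.22, adjusted p = 0.0599). SUM44 passage 74 lay well above the other SUM44 arrays, and without it the difference was 1.10 (adjusted p = 0.0132). P4HB, a protein disulfide isomerase, read 11.16, 11.28 and 11.58 in SUM44 and 12.10, 11.92 and 11.74 in LCCTam (difference 0.58, SE 0.14, adjusted p = 0.0543). Its other probe set differed by 0.55. P4HB passed without SUM44 passage 76 (adjusted p = 0.0401) and without LCCTam passage 10 (0.0336).

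Among the chaperones and folding enzymes, 14 genes were measured, of which 1 fell, 0 rose and 13 did not pass, with a median difference of 0.13. Of all genes, 5.83% fell and 2.09% rose, with a median of 0.017. HSPA5 encodes BiP, the central ER chaperone that also holds the sensors inactive. It read 10.59, 10.61 and 10.71 in SUM44 and 10.66, 10.88 and 10.73 in LCCTam. The values overlapped, and the difference was 0.12 (95% interval -0.10 to 0.34, adjusted p = 0.501). HSP90B1, the HSP90 of the ER (GRP94), read 8.65, 8.74 and 8.88 in SUM44 and 8.23, 8.40 and 8.61 in LCCTam. It differed by -0.34 (adjusted p = 0.149), with its other probe set at -0.36. Both HSP90B1 probe sets carry the suffix _x_at, so they can cross-hybridize.

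SDF2L1, a cofactor of BiP's DNAJ partners, had the largest difference of these chaperones, at 0.77 (SE 0.25, adjusted p = 0.114). It read 8.46, 9.13 and 9.48 in SUM44 and 10.00, 9.68 and 9.71 in LCCTam. The lines did not overlap, and SUM44 passage 74 was far below the other SUM44 arrays. CRELD2, a secreted disulfide isomerase, differed by 0.39 and HYOU1, a large HSP70 relative that exchanges nucleotide on BiP, by 0.31, both with every LCCTam value above SUM44 (adjusted p = 0.145 and 0.26). The BiP co-chaperone DNAJB9 differed by 0.20, but its dimmer probe set by -0.086.

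The differences of the remaining folding genes lay close to 0. PDIA4, MANF, PDIA6, PDIA3 and DNAJC3 differed by 0.14, 0.06, 0.0060, 0.0013 and -0.0075. PDIA3, PDIA4 and PDIA6 are disulfide isomerases, MANF is a secreted BiP-binding factor, and DNAJC3 is a BiP co-chaperone. For PDIA3 the 95% interval ran from -0.23 to 0.23, and for PDIA6, read by 4 probe sets with differences from 0.0060 to 0.096, from -0.30 to 0.31. DNAJC3 was dim: its SUM44 arrays averaged 5.06 ± 0.11 and its LCCTam arrays 5.05 ± 0.07 (mean ± SD of 3 arrays). No detection calls were used here, so a level this low cannot be told from background.

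The genes with an ERSE or ERSE-II match did not share a direction. Over these 10, differences ran from -0.53 for CANX to 0.86 for HERPUD1, with a median of 0.25, and 8 lay above 0. SERP1 counts among the 8 by its brightest probe set, while its other probe sets differed by -0.30 and -0.30. Among all 11963 genes the median was 0.017, and 6412 lay above 0. Of the 10, 1 fell and 0 rose, where 5.83% of all genes fell and 2.09% rose. HSPA5 and CRELD2, whose ERSE stretches are printed above, differed by 0.12 and 0.39, and HSP90B1 with its pair of matches by -0.34.

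The translocation, degradation and export genes numbered 9, of which SEC61A1 rose, SEL1L fell and 7 did not pass (median 0.17). EDEM1, a lectin that hands misfolded glycoproteins to degradation, differed by 0.27. SEC24D, a cargo subunit of the COPII coat that buds vesicles from the ER, differed by 0.17, and VCP, the ATPase that extracts proteins from the ER membrane, by -0.0072. SERP1, which stabilizes membrane proteins during translocation, depended on the probe set. Its brightest differed by 0.20 and the other SERP1 probe sets by -0.30 and -0.30, with adjusted p of 0.246, 0.267 and 0.0678 in the limma fit of probe sets.

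None of the 3 sensors passed in limma, and 1 of them, EIF2AK3, had an unadjusted p under 0.05, which 23.1% of all genes had. EIF2AK3 (PERK) read 7.67, 7.45 and 7.50 in SUM44 and 6.99, 7.17 and 7.36 in LCCTam (difference -0.37, SE 0.12, adjusted p = 0.118), so the lines did not overlap. ERN1 (IRE1) read 6.03, 5.78 and 5.83 against 6.01, 6.03 and 6.36 (difference 0.25, adjusted p = 0.297). ATF6 read 8.38, 8.31 and 8.09 against 8.22, 8.28 and 7.85 (difference -0.14, adjusted p = 0.601). The dimmer ATF6 probe set differed by -0.78 (adjusted p = 0.0573 in the limma fit of probe sets), with every LCCTam value below SUM44, so the ATF6 probe sets differed in size. The dimmer one read 5.48, 5.42 and 5.80 in LCCTam, below the medians of these arrays (5.92 to 5.95). No detection calls were used here.

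With LCCTam passage 10 left out, since its actin control differed most between ends, 7 of the 32 members passed (21.9%), against 12.8% of all genes. EIF2AK3 (-0.46, adjusted p = 0.0405), HSP90B1 (-0.44, adjusted p = 0.0434), HYOU1 (0.46, adjusted p = 0.0406) and P4HB joined SEC61A1, CANX and SEL1L in this limma fit.

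Among the PERK-ATF4 genes, the within-line SD exceeded the difference between the lines for ATF4, ASNS, CHAC1 and PPP1R15A, but not for DDIT3 (difference 0.16, SD 0.11) and TRIB3 (difference -0.70, SD 0.68). None of the 6 passed in limma, and 0 had an unadjusted p under 0.05. In the brightest probe set of each of the 6, the values of the lines overlapped. Of all genes, 7.92% passed, 23.1% had such an unadjusted p, and 29.8% did not overlap. ATF4 read 12.17, 11.20 and 11.39 in SUM44 and 11.25, 11.97 and 11.21 in LCCTam. SUM44 passage 74 and LCCTam passage 9 were the high arrays, while the lines differed by -0.11 (SE 0.30, adjusted p = 0.868).

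ASNS encodes asparagine synthetase, a classical ATF4 target whose CARE match is printed above. It followed the same order, at 11.48, 10.00 and 9.99 in SUM44 and 10.06, 11.06 and 10.02 in LCCTam. The difference between the lines was -0.11 (95% interval -1.19 to 0.97), while passage 74 lay 1.49 above the mean of the other SUM44 arrays and passage 9 lay 1.03 above the mean of the other LCCTam arrays. The sign of the line difference turned when single arrays were left out, from -0.45 without LCCTam passage 9 to 0.38 without SUM44 passage 74.

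TRIB3 encodes a pseudokinase induced through ATF4 and CHOP. It read 11.08, 9.84 and 9.66 in SUM44 and 9.58, 10.02 and 8.89 in LCCTam, a difference of -0.70 (95% interval -1.69 to 0.30, adjusted p = 0.38) that was -0.25 without SUM44 passage 74. CHAC1, an enzyme that degrades glutathione, read 8.67, 7.00 and 7.27 in SUM44 and 7.70, 8.21 and 7.53 in LCCTam. Its difference was 0.17 (adjusted p = 0.857), and 0.68 without SUM44 passage 74. In both genes SUM44 passage 74 was the highest array of all 6.

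DDIT3 and PPP1R15A varied less. DDIT3 encodes CHOP, the factor tied to cell death in lasting ER stress, and read 8.69, 8.46 and 8.57 in SUM44 and 8.64, 8.86 and 8.71 in LCCTam (difference 0.16, adjusted p = 0.404). PPP1R15A encodes GADD34, which directs the phosphatase that reverses eIF2 phosphorylation, and read 6.67, 6.48 and 6.48 against 6.48, 6.74 and 6.47 (difference 0.018, adjusted p = 0.945). The same arrays were the highest of their lines, by 0.18 over the mean of the others in DDIT3 at both passage 74 and passage 9, and by 0.19 and 0.27 in PPP1R15A. The dimmer PPP1R15A probe set read 5.68, 5.63 and 5.43 in SUM44 and 5.76, 5.72 and 5.74 in LCCTam. There passage 9 was the lowest LCCTam array, and every LCCTam value lay above SUM44. Its difference was 0.16 (adjusted p = 0.354 in the limma fit of probe sets).

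**Figure D3:**
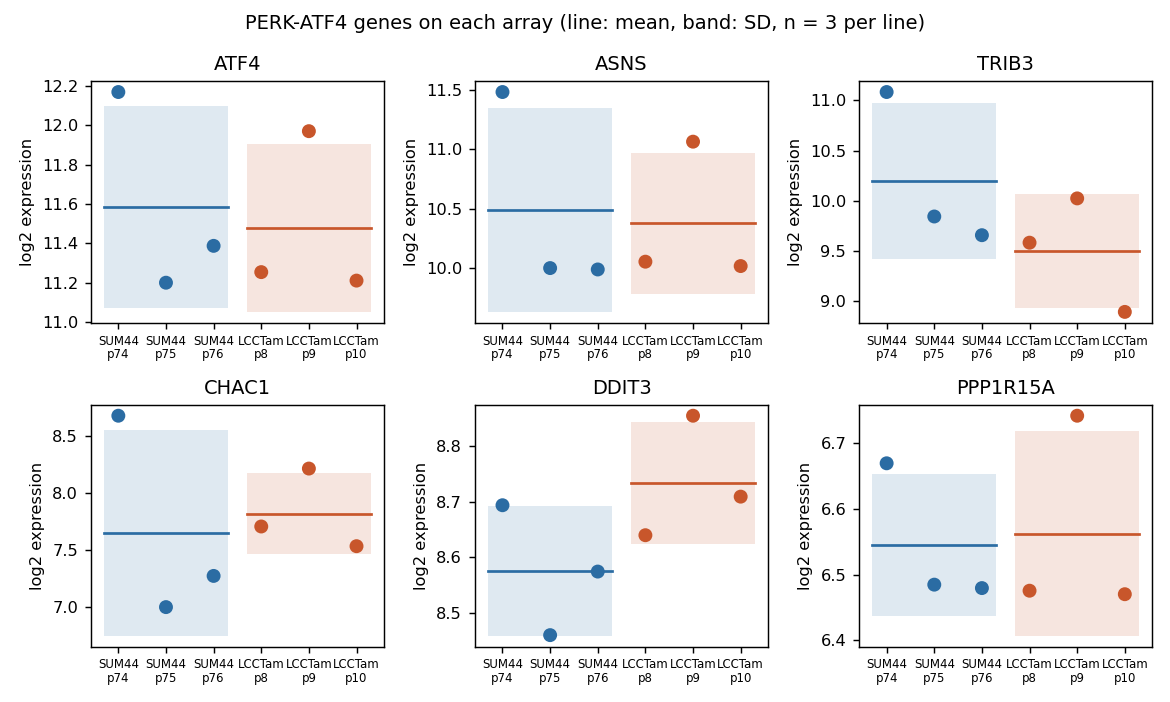
Log2 expression of the 6 PERK-ATF4 genes on each array, with the mean (line) and SD (band) of each cell line, n = 3. SUM44 passage 74 and LCCTam passage 9 are the highest arrays of their lines in all 6 panels, and the bands of the lines overlap in each. Vertical scales differ between panels.

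By the brightest probe set, all 6 genes were highest at SUM44 passage 74 among SUM44 arrays and at LCCTam passage 9 among LCCTam arrays. This held for 16.9% of all genes. For 4 of the 6 (ATF4, ASNS, TRIB3 and CHAC1) both arrays exceeded the mean of the rest of their line by at least 0.5, which held for 0.585% of all genes. These arrays were picked out after the values of the 6 genes were seen, so the counts are a description. The within-line SD of ASNS, CHAC1, TRIB3 and ATF4 was 0.74, 0.68, 0.68 and 0.47, above 98.1% or more of all genes, where the median gene had 0.15. After quantile normalization 5 of the 6 kept this order. LCCTam passage 10, the array with the uneven actin control, was the lowest LCCTam array for 5 of the 6, against 49.4% of all genes. Its part in the pattern was not tested.

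The ATF6 and IRE1 side as a whole did not follow that order. Of its 23 genes, 3 were highest at both passage 74 and passage 9 (13.0%, against 16.9% of all genes), and 0 exceeded 0.5 in both. The 3 were HERPUD1, EDEM1 and SEC61A1, all among the 9 translocation, degradation and export genes (33.3%). HERPUD1 lay 0.72 above the mean of the rest of its line at passage 74 and 0.37 above it at passage 9. Among the 14 chaperones and folding enzymes, 0 had passage 74 as the highest SUM44 array, which held for 4879 of all 11963 genes. Averaged over the PERK-ATF4 genes, log2 expression was 9.80, 8.83 and 8.89 in SUM44 and 8.95, 9.48 and 8.81 in LCCTam. Averaged over the chaperones and folding enzymes it was 9.53, 9.67 and 9.77, and 9.86, 9.81 and 9.74. Passage 74 was thus the highest SUM44 array for the first average and the lowest for the second.

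**Figure D4:**
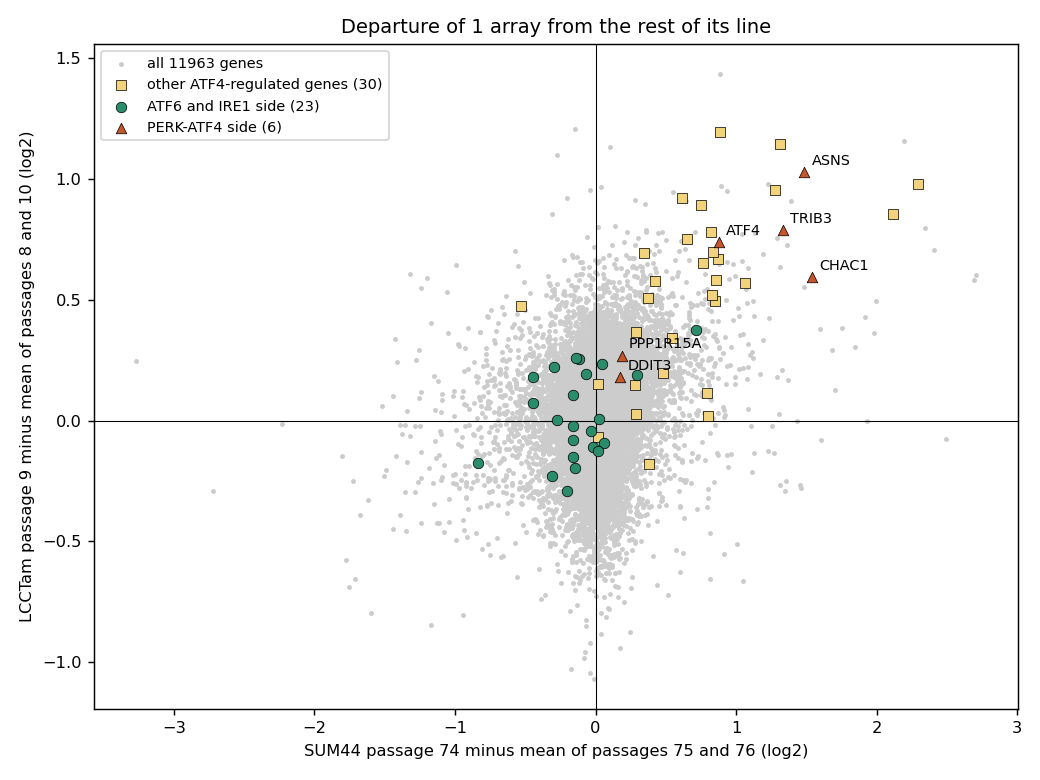
Each gene's departure of SUM44 passage 74 from the mean of passages 75 and 76 (horizontal axis) and of LCCTam passage 9 from the mean of passages 8 and 10 (vertical axis), both log2. ASNS, TRIB3, CHAC1 and ATF4 lie above 0.5 on both axes, and the 23 genes of the ATF6 and IRE1 side have none there.

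Other ATF4-regulated genes of amino acid supply and stress followed the PERK-ATF4 members. Of 30 measured, 24 (80.0%) had both passage 74 and passage 9 as the highest array of their line, and 15 exceeded 0.5 in both. In the other lists described below, the order held for 6 of 12 factors and proteases (50%) and 4 of 11 genes around eIF2 (36.4%). It held for 4 of 12 degradation genes (33.3%) and 5 of 16 folding and glycoprotein enzymes (31.2%). Shares were 13.6% of 22 translocon, 5% of 20 export and 7.69% of 13 heat shock genes, against 16.9% of all genes. DDIT4, an inhibitor of the growth kinase mTOR, read 9.92, 7.76 and 7.50 in SUM44 and 8.48, 9.25 and 8.08 in LCCTam. SLC7A11, the cystine importer, read 8.45, 6.36 and 6.31 against 6.91, 7.97 and 7.32. DDIT4 and SLC7A11 were chosen after their values were seen, as the largest departures at passage 74. Between the lines 0 of the 30 passed in limma, and 7 had an unadjusted p under 0.05, a share close to the 23.1% of all genes. The largest difference was STC2 at -0.93 (adjusted p = 0.0685). CARE was in the promoter windows of 9 of the 24 genes that had one (37.5%), against 4.45% of all genes.

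**Figure D5:**
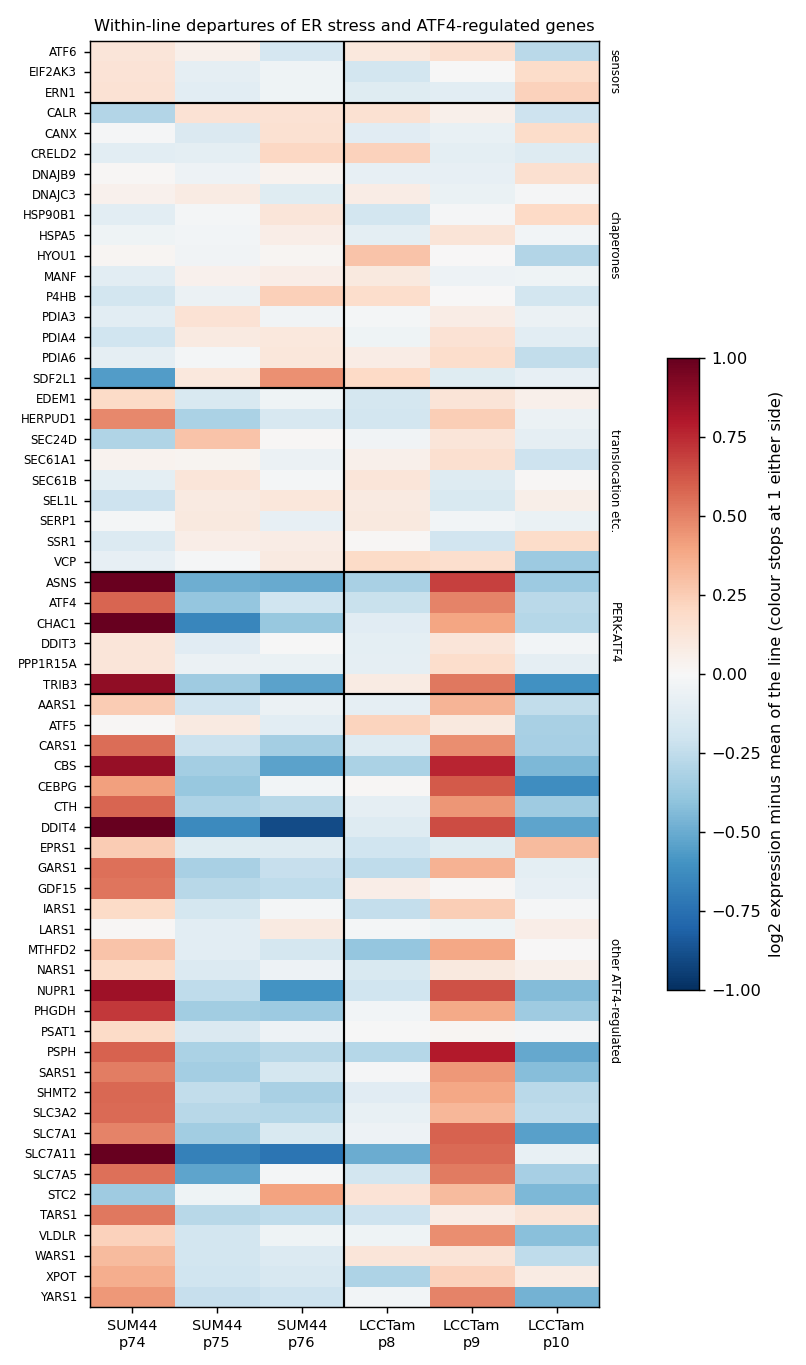
Log2 expression minus the mean of the same line for the 32 members and the 30 other ATF4-regulated genes (rows) on the 6 arrays (columns), with colour stopping at 1 on either side. The PERK-ATF4 and other ATF4-regulated blocks are mostly red at SUM44 passage 74 and LCCTam passage 9, and the chaperone block is pale apart from SDF2L1.

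The other lists of the pathway held 123 measured genes with these 30, of which 4 rose and 11 fell, against 7.92% of all genes passing (2.09% higher and 5.83% lower). Without each array in turn 4 of these 15 kept passing, CLGN, EIF2AK2, NFYB and UBXN4, and the other 11 lost the call without at least 1 array. All 11 lost it without SUM44 passage 75 and 10 without LCCTam passage 8. The number was 8 without SUM44 passage 76, 8 without LCCTam passage 9, 6 without SUM44 passage 74 and 1, MCFD2, without LCCTam passage 10. Of 12 factors and proteases of ER stress signalling, CREB3L2, a membrane-bound factor related to ATF6, rose by 0.67 on the log2 scale. The subunits NFYB and NFYA of the CCAAT-binding factor NF-Y, which binds the CCAAT box of ERSE together with ATF6, fell by 0.95 and 0.70. CREB3L2 and NFYA had limma adjusted p of up to 0.0905 and 0.123 with 1 array left out, and with the mean of all probe sets NFYA differed by -0.38. XBP1 differed by 0.32 with every LCCTam value above SUM44 (adjusted p = 0.256). ATF3, a stress factor downstream of ATF4, read 7.77, 7.07 and 6.71 in SUM44 and 7.18, 8.50 and 6.95 in LCCTam (difference 0.36, adjusted p = 0.675), high on the same arrays as ATF4.

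Of 16 other folding and glycoprotein enzymes, QSOX1, a sulfhydryl oxidase, and PRDX4, the ER peroxiredoxin, rose by 0.86 and 0.45. CLGN, a relative of calnexin, fell, with a measured log2 difference of -1.90. Its LCCTam values of 4.42 to 4.60 were too low to be told from background, so the difference is only a lower limit on the size of the fall. With 1 array left out, the limma adjusted p reached 0.131 for QSOX1 and 0.144 for PRDX4. Of 12 degradation genes UBXN4, an ER anchor for VCP, and EDEM3 fell by 1.06 and 0.63, and EDEM3 reached an adjusted p of 0.0991. EDEM3 was dim in LCCTam, at 5.49 to 5.79. Of 22 translocon, signal peptidase and oligosaccharyltransferase genes, TRAM1 and SRP9 fell by 0.57 and 0.46, reaching adjusted p of 0.17 and 0.177.

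Of 20 export and retrieval genes, COPA, a subunit of the COPI coat, rose by 0.47, and SEC24B and MCFD2 fell by 0.78 and 0.67. With 1 array left out these reached limma adjusted p of 0.156, 0.0595 and 0.137, and with the mean of all probe sets COPA differed by 0.086 and MCFD2 by -0.26. Of 11 genes around eIF2, EIF2AK2, the interferon-induced eIF2 kinase PKR, fell by 1.39 and NCK1 by 0.58, the latter reaching an adjusted p of 0.139. NCK1 was dim in LCCTam, at 5.46 to 5.81. Of 13 heat shock genes of the cytosol and mitochondria 0 passed in limma, 4 had an unadjusted p under 0.05 (against 23.1% of all genes), and the largest difference was HSPB1 at -0.90 (adjusted p = 0.0682).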

How the data were processed

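Total RNA of each sample was biotin-labelled and hybridized to 1 Affymetrix array. The deposited values are log2 expression per probe set. The authors obtained them by RMA in Bioconductor, per the series' design text. The sources used here do not give the software version, the chip definition file or the set of arrays normalized jointly. Precision is limited by the number of arrays. Since passages may not be independent cultures, p-values measure only the spread between these arrays, which may be technical. Scan dates were not used here.

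Of 22283 probe sets, 68 controls were left out. The platform annotation listed 20114, of which 19071 had 1 gene symbol. The 1043 with several symbols were left unnamed, and 2 of these include a member. Symbols of 19059 were updated through Entrez identifiers with the RefSeq table (GRCh38.p14), leaving 19065 probe sets and 11963 genes, each gene by its probe set with the highest mean. limma 3.58.1 in R 4.3.3 (lmFit, eBayes) was fitted without an intensity filter, over genes and over probe sets, with 3.12 and 3.01 prior degrees of freedom and Benjamini-Hochberg adjustment. No pairs of samples were formed, since the lines share no passage.

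The members and the lists were chosen with earlier results of these data known. Values were given for members that passed, the sensors, ATF4, DDIT3, HSPA5, HSP90B1 and the largest difference of each group, for up to 3 passing genes of each other list (or its largest difference), and for XBP1 and ATF3. Values of other genes were added after they were seen. The fit was also tested on simulated data of 11963 genes with independent normal noise, in which 50 genes were changed at each size. It found 26% of the genes given a log2 change of 0.5, 64% of those given 1, 96% of those given 2 and 100% of those given 3, with 6 false calls among 149. In the data 948 genes passed, and the simulation held no departure of a whole array, so these shares need not hold for these arrays.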

Additional observations from a re-analysis of the deposited data

How the results depend on the processing

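No paired analysis was possible because the lines share no passage number. SEC61A1 kept its call in the 11 alternatives that measured it, and no member reversed a call in any of 374 values over 32 genes (343 kept their side of the threshold, 11 lost it and 20 gained it). Of the 3 passing members, 0 were left once probe sets with the suffixes _x_at and _s_at had been dropped, which kept 22 members and removed SEC61A1, CANX and SEL1L altogether. The number passing was 5 with the dimmest 20% of genes removed and with limma-trend (3 higher, with HERPUD1 and P4HB added). Of all genes, 10.1% and 8.1% passed in these settings. With array weights 12 members passed (8 higher, 4 lower), against 32.1% of all genes. With a 2-fold requirement 1 member passed. The selection of the submitters' design text also took 1 member, and 294 of all genes. With quantile normalization 2 members were higher and 0 lower, against 9.14% of all genes passing. Array weights favoured LCCTam passage 8 (4.02) and SUM44 passage 75 (2.88) and raised the calls among all genes to 3844 (1900 higher, 1944 lower) and among the other genes of the pathway to 54 (24 and 30). Without the suffixed probe sets those were 598 (150 and 448), with 7 other pathway genes lower, and with quantile normalization 501 of all genes were higher. Of member probe sets 8 passed, 3 of them higher, with dim probe sets removed, and 3 were higher and 3 lower with quantile normalization, CANX probe sets among the latter. The shares of all probe sets passing in these settings are not given here.

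Leaving out 1 array gave 1 to 7 members (1 to 3 higher, 0 to 4 lower), 1 to 13 member probe sets (1 to 4 higher, 0 to 9 lower), 4 to 21 other pathway genes (0 to 9 higher, 4 to 12 lower) and 259 to 1527 of all genes (68 to 633 higher, 191 to 894 lower). The median of the translocation, degradation and export members was 0.072 both without the suffixed probe sets and with the mean of all probe sets, and 0.023 to 0.22 with 1 array left out. The chaperone median was 0.029 without the suffixed probe sets and 0.068 to 0.17 with 1 array left out. The sensor median was -0.37 with the mean of all probe sets and -0.23 to -0.0087 with 1 array left out, and the PERK-ATF4 median -0.23 to 0.20. In alternatives chosen after seeing the data, 21 of 30 other ATF4-regulated genes were highest at SUM44 passage 74 and LCCTam passage 9 with quantile normalization, 24 with the mean of all probe sets and 13 of 17 without the suffixed probe sets. The cause of these changes was not tested beyond the genes and arrays each setting removes.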
